A study of Mus musculus with 16 samples.

Results

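The genes described here are 9 guidance genes: the ephrin ligands Efna1, Efnb1 and Efnb2, the Eph receptors Epha2 and Ephb4, the secreted ligand Slit2, the receptors Robo4 and Unc5b, and the semaphorin receptor Plxnd1. They were chosen by gene symbol, and all 9 were found among the 54532 genes of each table. Their mRNA was followed in pulmonary endothelial cells (ECs) in 2 comparisons, saline with LPS in WT mice, and Fgfr1 loxP/loxP with Fgfr1 iΔEC/iΔEC mice after LPS.

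Bulk RNA-seq was run on ECs taken from mouse lung after CD45+ cells had been removed and CD31+ cells selected with magnetic beads. In the first experiment, male WT C57/BL6J mice of 8 weeks received saline (n = 4) or 10 mg/kg LPS (n = 6) in the trachea, and ECs were collected 24 h later. LPS, a bacterial endotoxin, given in this way is a model of acute lung injury. In the second experiment, Fgfr1 iΔEC/iΔEC mice (n = 3) carried Fgfr1 loxP/loxP and the tamoxifen-inducible VE-cadherin-CreERT2, and their littermates with Fgfr1 loxP/loxP alone (n = 3) served as controls. Both genotypes received tamoxifen and 2 mg/kg LPS for 24 h, so this experiment held no mice without LPS. The study describes the Fgfr1 iΔEC/iΔEC mice as adult, and the age of the mice of this experiment in weeks is not given in the sources used here. The VE-cadherin promoter that drives the Cre is active in ECs, so Fgfr1 in other cells of the fraction is not a target of the deletion, and the bead selection does not remove other CD31+ cells. The labels do not say whether each library came from a single mouse, so p-values measure the spread between these libraries, which may be technical in part.

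Ephrins and Eph receptors are both bound to cell membranes and signal where neighbouring cells touch, and in vessels ephrin-B2 is known as an arterial marker and its receptor EphB4 as a venous one. Slits and netrins are secreted cues, and Robo4 and Unc5b are receptors of ECs that are known to stabilise vessels. PlexinD1 is the endothelial receptor for class 3 semaphorins.

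The EC label was checked against marker genes. In FPKM (fragments per kilobase of gene, scaled to library size), none of 10 endothelial markers was at 0 in any library, and the most abundant, Cldn5 of endothelial tight junctions, had a mean of 1533 in saline and 1058 in LPS. Markers of other cells were also present and differed between the groups. The leukocyte list (6 of 6 genes higher in LPS by limma) summed to 76.5 to 227 FPKM in saline and 641 to 1554 in LPS, with Coro1a most abundant, and Ptprc, which encodes the depleted CD45, had a mean of 6.97 ± 3.13 FPKM (SD, n = 4) in saline and 34.6 ± 11.4 (SD, n = 6) in LPS. The neutrophil list (7 of 8 higher) summed to 69.5 to 1380 FPKM in saline and 1293 to 6638 in LPS, with S100a9 most abundant, and the macrophage list (7 of 8 higher) to 426 to 1197 and 2227 to 4828, with Lyz2 most abundant. Of these markers, Ly6g of neutrophils and Marco of macrophages were at 0 in at least 1 library. On the mean log2(FPKM + 1) of its 10 genes, the endothelial list was at 7.80 in saline and 7.04 in LPS, a difference of -0.76 with no overlap between the groups. The epithelial list differed by -0.54, with Sftpc most abundant, the fibroblast list by -0.47, the mural list by -0.19, the lymphocyte list by -1.01, the lymphatic endothelial list by -0.37 and the erythroid list by 1.17, all with overlap. In sum, the epithelial list did not overlap, at 1068 to 2845 FPKM in saline and 263 to 941 in LPS. Sftpc had a mean of 1316 FPKM in saline and 280 in LPS, and 2 of 9 tested epithelial genes were lower by limma. In bulk samples, fewer cells of a type and less RNA per cell cannot be told apart.

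Among the saline libraries, saline 1 and saline 3 stood apart from the others. The neutrophil markers summed to 1380 FPKM in saline 1, against 69.5 to 307 in the rest, and the lymphocyte markers to 24.0 FPKM in saline 3, against 104 to 134 in the rest. Saline 1 had the highest level of its group in 5 of the 9 guidance genes and the lowest in 2. LPS 1, which had the lowest endothelial sum of its group (1361 FPKM, against 2051 to 3254), was lowest in 8 of the 9. Where a call below was lost without 1 of these libraries, the value without it is given.

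The promoter sequences below belong to Efnb2, Ephb4 and Plxnd1, the 3 tested genes whose level was lower in every LPS library than in every saline library. They are the 150 bases that end just before the annotated start of the gene (RefSeq, GRCm38.p6), written 5′ to 3′ on the strand of the gene. Capitals mark GC boxes, the letters GGGCGG or, on the other strand, CCGCCC. The Efnb2 sequence lies at chr8:8661243-8661392 on the minus strand, that of Ephb4 at chr5:137349959-137350108 on the plus strand and that of Plxnd1 at chr6:115995006-115995155 on the minus strand.
Efnb2: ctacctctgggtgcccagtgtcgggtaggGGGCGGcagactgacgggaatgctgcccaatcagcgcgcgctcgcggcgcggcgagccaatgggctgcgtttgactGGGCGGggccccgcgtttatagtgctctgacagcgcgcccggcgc
Ephb4: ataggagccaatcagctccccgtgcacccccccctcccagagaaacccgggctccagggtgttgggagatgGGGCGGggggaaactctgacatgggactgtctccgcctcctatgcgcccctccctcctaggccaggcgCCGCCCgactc
Plxnd1: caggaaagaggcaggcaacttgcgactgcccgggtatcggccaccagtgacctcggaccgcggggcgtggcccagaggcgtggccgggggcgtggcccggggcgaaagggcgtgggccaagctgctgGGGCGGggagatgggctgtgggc

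All 3 sequences were rich in G and C, at 70.7% for Efnb2, 68.0% for Ephb4 and 74.0% for Plxnd1, against a median of 54.0% over all promoters of the table. Efnb2 and Ephb4 each held 2 GC boxes in these bases and Plxnd1 held 1. Over the 250 bases before the start, 8 of the 10 promoters of the 9 guidance genes (Efna1 has 2) held a GC box, as 32.7% of 32851 promoters do. The ETS core letters AGGAAG (other strand CTTCCT) were found in 4 of the 10 and in 29.5% of all promoters. The AP-1 letters TGACTCA (other strand TGAGTCA) were found in 0 of the 10 and in 4.46% of all promoters. These are matches of letters and show no binding.

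The first comparison asked how LPS changes gene expression in pulmonary ECs. Of the 8 guidance genes that passed the filter (a mean of at least 0.5 FPKM), 6 were lower in LPS at an adjusted p at or under 0.05 in limma, namely Efna1, Efnb1, Efnb2, Ephb4, Robo4 and Plxnd1. Across all 14893 genes tested, 23.7% were lower. None of the 8 was called higher, against 29.5% of all genes, and all 8 had a log2 fold change below 0, against 49.3% of all genes. Epha2 and Unc5b were not called, and Slit2 fell under the filter. When a change of at least 1 on the log2 scale was also required, 2 guidance genes were called lower, Efna1 and Efnb2, and none higher, against 6.79% and 11.9% of all genes. The groups did not overlap, with LPS lower, for 3 of the 8, against 16.7% of all genes. The median log2 fold change was -0.75 over the 8 and 0.01 over all genes tested. Fold changes here are differences of log2(FPKM + 1), which understate the change of low genes.

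These directions are relative to all expressed genes of the same library, and they depended on that choice. When the libraries were scaled on the 10 endothelial markers instead, the median over all genes moved from 0.01 to 0.60 on the log2 scale. Of the guidance genes, 1 was called lower (Efnb2) and 1 higher (Epha2), beside 4.81% lower and 49.8% higher of all genes. When the libraries were scaled on Pecam1, which encodes the CD31 used for selection, the same 6 were called lower. Of all genes, 13.1% were lower and 26.9% higher in that fit. When the libraries were scaled on Cdh5, which encodes VE-cadherin, none of the guidance genes was called lower and Epha2 was called higher. Of all genes, 4.03% were lower and 56.3% higher there, with a median of 0.69. Of the 10 endothelial markers themselves, 6 were called lower and none higher. Of 4 of them, 3 named after their values were seen (Emcn, Cdh5 and Kdr), the log2 fold change was -0.17 for Pecam1 (limma, adjusted p = 0.516), -0.12 for Emcn (adjusted p = 0.591), -0.88 for Cdh5 (adjusted p = 0.00575) and -1.63 for Kdr (adjusted p = 0.000662). The part that cell composition has in the 6 calls was not tested.

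**Figure D1:**
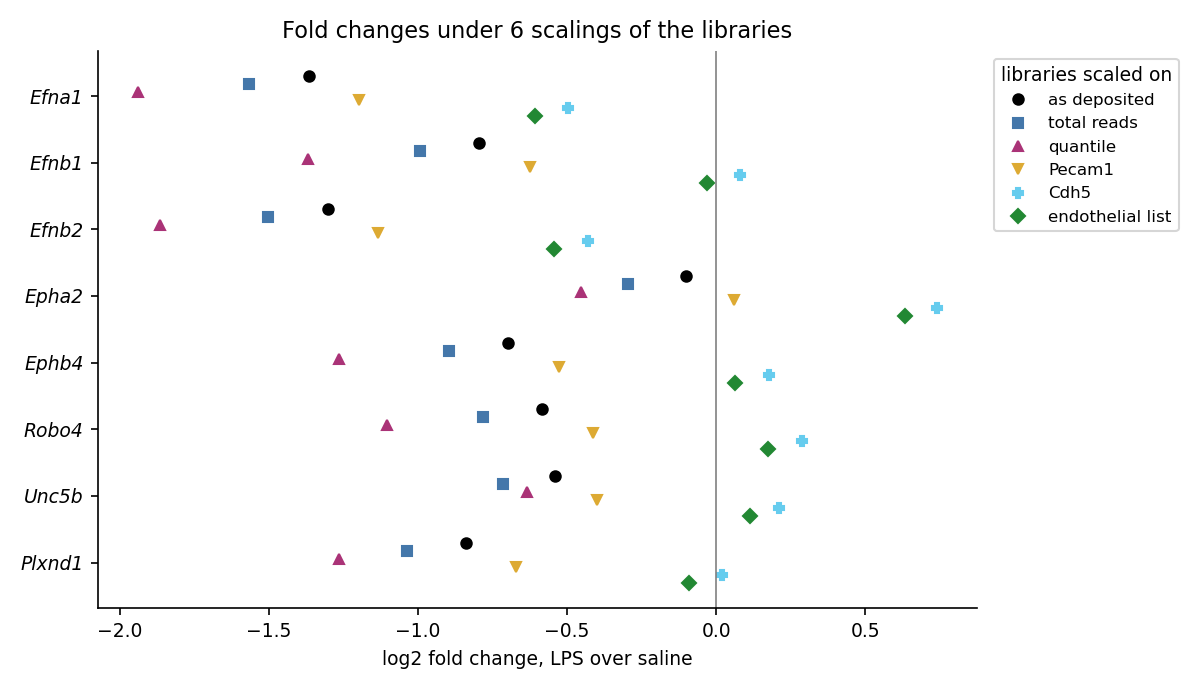
Log2 fold change of FPKM + 1, LPS over saline, on the horizontal axis for the 8 tested guidance genes, with 1 symbol for each scaling of the libraries. All 8 lie below 0 as deposited and when scaled on total reads or by quantiles, Epha2 alone moves above 0 on Pecam1 (0.061), and on Cdh5 alone only Efna1 (-0.50) and Efnb2 (-0.43) remain below 0.

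Among the ligands, Efnb2 (chr8:8617434-8661242, minus strand) encodes ephrin-B2. Its level was 153, 117, 107 and 112 FPKM in saline 1 to 4, and 28.0 (lowest), 49.0 (median) and 76.9 FPKM (highest) in the 6 LPS libraries. All 6 LPS libraries lay under the lowest saline library. The mean fell from 122 ± 20.9 FPKM (SD, n = 4) to 50.5 ± 16.1 (SD, n = 6), 2.42-fold, with a log2 fold change of -1.30 (SE 0.23, limma adjusted p = 0.000885). It was the only guidance gene called lower also on the endothelial scaling (log2 fold change -0.54, limma adjusted p = 0.033). On Cdh5 alone its log2 fold change was -0.43 (limma adjusted p = 0.0688).

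Efna1 (chr3:89271733-89281142, minus strand) encodes ephrin-A1, the ligand of EphA2, and was first described as a gene induced by TNF in ECs. Its level was 60.7, 113, 176 and 120 FPKM in saline 1 to 4, and 26.4 (lowest), 42.8 (median) and 65.5 FPKM (highest) in LPS. The groups met only where saline 1 lay below LPS 2, and the other 5 LPS libraries were below all saline libraries. The mean fell from 117 ± 47.0 FPKM (SD, n = 4) to 43.4 ± 12.7 (SD, n = 6), 2.70-fold, with a log2 fold change of -1.37 (SE 0.29, limma adjusted p = 0.00234). It was -0.61 on the endothelial scaling, where it was not called.

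Efnb1 (chrX:99136130-99148991, plus strand) encodes ephrin-B1. Its level was 240, 102, 110 and 107 FPKM in saline 1 to 4, and 41.1 (lowest), 79.4 (median) and 107 FPKM (highest) in LPS. Saline 1 stood far above the other saline libraries, and LPS 6 reached the level of the lower 3. The log2 fold change was -0.79 (SE 0.30, limma adjusted p = 0.0412), and without saline 1 it was -0.50 (limma adjusted p = 0.112). The call was also lost without saline 3 (log2 fold change -0.87, adjusted p = 0.0513), without LPS 1 (-0.62, adjusted p = 0.0640) and in 4 of the other 7 such fits. On the endothelial scaling the value was -0.03, and on Cdh5 alone it turned to 0.082.

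Slit2 (chr5:47983138-48307733, plus strand), the secreted ligand of Robo receptors, was the lowest of the 9 genes. Its level was 0.618, 0.816, 0.416 and 0.899 FPKM in saline 1 to 4, from 189 to 459 reads, and 0.103 (lowest), 0.207 (median) and 0.361 FPKM (highest) in LPS, from 48 to 175 reads. No LPS library reached the lowest saline library. The mean of 0.210 ± 0.0871 FPKM (SD, n = 6) in LPS was 3.27-fold lower than the 0.687 ± 0.216 (SD, n = 4) in saline (two-sided exact permutation test on log2(FPKM + 1), p = 0.00952, the smallest that 4 against 6 libraries allow). This p is for a single gene and is not adjusted. Slit2 also fell under the filter on the endothelial scaling and on Cdh5 alone, so its direction there was not tested. The deposited gene length of 25433 bases exceeds the 9960 bases of the longest coding transcript in GENCODE M21. The FPKM therefore understates the level of this gene beside the others.

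Among the receptors, Ephb4 (chr5:137350109-137378669, plus strand) encodes EphB4, the receptor of ephrin-B2. Its level was 111, 95.6, 103 and 101 FPKM in saline 1 to 4, and 36.1 (lowest), 66.1 (median) and 86.7 FPKM (highest) in LPS. The saline libraries lay close together and above all LPS libraries. The mean fell from 103 ± 6.16 FPKM (SD, n = 4) to 65.1 ± 17.6 (SD, n = 6), 1.58-fold, with a log2 fold change of -0.70 (SE 0.21, limma adjusted p = 0.0164), which turned to 0.064 on the endothelial scaling and 0.18 on Cdh5 alone. Ephb4 shares 33 exon bases with Zan on the opposite strand, and whether strand was used in counting is not given in the sources used here.

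Epha2 (chr4:141301240-141329384, plus strand), which encodes the receptor of ephrin-A1, did not follow its ligand. Its level was 22.9, 20.96, 25.7 and 22.0 FPKM in saline 1 to 4, and 14.4 (lowest), 21.5 (median) and 32.5 FPKM (highest) in LPS. The LPS libraries spread on both sides of the saline libraries, with 3 below all of them and 2 above. The log2 fold change was -0.10 (SE 0.21, limma adjusted p = 0.700), with a 95% confidence interval of -0.56 to 0.36. The sign turned on Pecam1 alone (0.061), on Cdh5 alone (0.74, limma adjusted p = 0.00378) and on the endothelial scaling (0.63, limma adjusted p = 0.0193).

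Robo4 (chr9:37401897-37415115, plus strand) is a Robo receptor expressed mainly in ECs. Its level was 89.6, 58.6, 79.4 and 63.9 FPKM in saline 1 to 4, and 30.1 (lowest), 49.7 (median) and 60.0 FPKM (highest) in LPS. Only LPS 4 lay above the lowest saline library, saline 2. The log2 fold change was -0.58 (SE 0.20, limma adjusted p = 0.0267), and the call was lost without saline 1 (log2 fold change -0.48, adjusted p = 0.0703) or without saline 3 (-0.54, adjusted p = 0.0702). The sign turned on the endothelial scaling (0.17) and on Cdh5 alone (0.29).

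Unc5b (chr10:60762593-60831581, minus strand) encodes a netrin receptor that Robo4 is known to bind. Its level was 10.2, 8.05, 7.28 and 6.79 FPKM in saline 1 to 4, and 2.53 (lowest), 5.46 (median) and 7.91 FPKM (highest) in LPS. The groups overlapped, with 4 of the 6 LPS libraries below all saline libraries. The log2 fold change was -0.54 (SE 0.24, limma adjusted p = 0.0767), which turned to 0.11 on the endothelial scaling and 0.21 on Cdh5 alone.

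Plxnd1 (chr6:115954811-115995005, minus strand) encodes PlexinD1. Its level was 41.3, 47.9, 54.7 and 46.0 FPKM in saline 1 to 4, and 19.0 (lowest), 26.2 (median) and 33.0 FPKM (highest) in LPS. The highest LPS library stayed under the lowest saline library, and both groups were narrow. The mean fell from 47.5 ± 5.55 FPKM (SD, n = 4) to 26.4 ± 5.21 (SD, n = 6), 1.80-fold, with a log2 fold change of -0.84 (SE 0.16, limma adjusted p = 0.00115). On the endothelial scaling it was -0.09, and on Cdh5 alone it turned to 0.021.

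**Figure D2:**
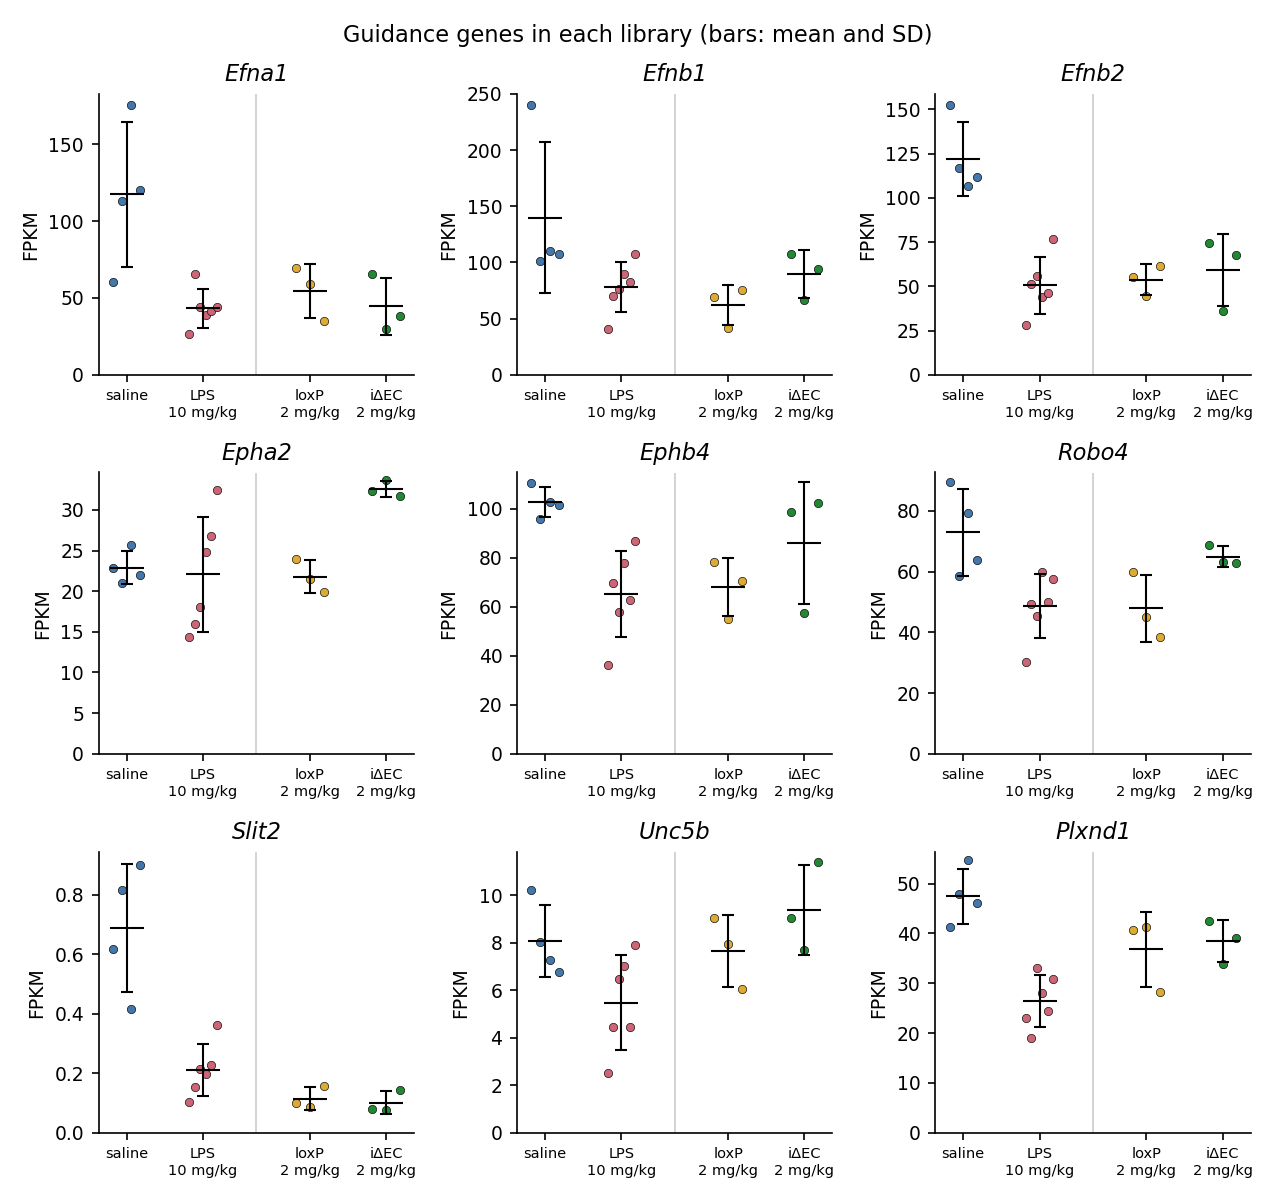
FPKM of each guidance gene in every library (points), with the mean and SD of the group (bars). Saline and LPS on the left of each panel and Fgfr1 loxP/loxP and Fgfr1 iΔEC/iΔEC on the right come from tables that were normalized separately. Efnb2, Ephb4, Plxnd1 and Slit2 show no overlap between saline and LPS, and the points of Efnb1 in saline include 240 FPKM in saline 1.

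Leaving out single libraries, Efna1, Efnb2, Ephb4 and Plxnd1 were called lower in 10 of 10 fits, Robo4 in 8, Efnb1 in 3 and Unc5b in 1. Without both saline 1 and saline 3, which left 2 saline libraries, 3 guidance genes were called lower, namely Efna1 (log2 fold change -1.45), Efnb2 (-1.22) and Plxnd1 (-0.83). Of all genes, 21.3% were lower and 28.6% higher in this fit. Ephb4 (-0.64, limma adjusted p = 0.0915), Efnb1 (-0.48) and Robo4 (-0.35) were not called there.

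FPKM is scaled on gene length, so levels were compared between these genes, but the deposited lengths join all exons of a gene, which lowers the FPKM of Efnb2 (6855 bases, against 4793 in the longest coding transcript of GENCODE M21) and Slit2 more than that of the others. In saline, Efnb1, Efnb2, Efna1 and Ephb4 were the highest in this order of mean FPKM, and each overlapped the next. Below them the order was Robo4, Plxnd1, Epha2, Unc5b and Slit2, and none of these overlapped its neighbours or Ephb4. Robo4 (58.6 to 89.6 FPKM) did overlap Efna1 (60.7 to 176 FPKM). In LPS the order was Efnb1, Ephb4, Efnb2, Robo4, Efna1, Plxnd1 and Epha2, each overlapping the next, followed by Unc5b and Slit2 with no overlap. The order of the upper genes is not firm. Without saline 1, the saline means were 136 FPKM for Efna1, 112 for Efnb2, 106 for Efnb1 and 99.9 for Ephb4, and on the transcript lengths with all libraries Efnb2 was first, at 175 FPKM, before Efnb1, at 148. On those lengths Robo4, Plxnd1, Epha2, Unc5b and Slit2 kept their order in saline.

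Ratios between a ligand and its receptor, or between genes whose products bind, were taken within the same library. They do not depend on any scaling by a single factor per library, which quantile normalization is not. They were chosen after the values had been seen and are given without a test. The ratio of Efnb2 to Ephb4 in FPKM was 1.04 to 1.38 in the saline libraries (mean 1.19 ± 0.151, SD, n = 4) and 0.568 to 0.969 in the LPS libraries (mean 0.780 ± 0.138, SD, n = 6). The ratio was thus higher in every saline library than in every LPS library. On the lengths of the longest coding transcripts it was 1.39 to 1.85 in saline and 0.760 to 1.30 in LPS, so its position against 1 depends on the lengths. The ratio of Efna1 to Epha2 was 2.65 to 6.83 in saline and 1.36 to 4.09 in LPS, and the groups overlapped only in that LPS 2 (4.09) lay above saline 1 (2.65). In saline 2 to 4 the ratio was 5.39, 6.83 and 5.47. The ratio of Efnb1 to Ephb4 (1.06 to 2.18 in saline, 1.00 to 1.33 in LPS) and that of Robo4 to Unc5b (7.28 to 10.9 and 7.04 to 11.9) overlapped as well.

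**Figure D3:**
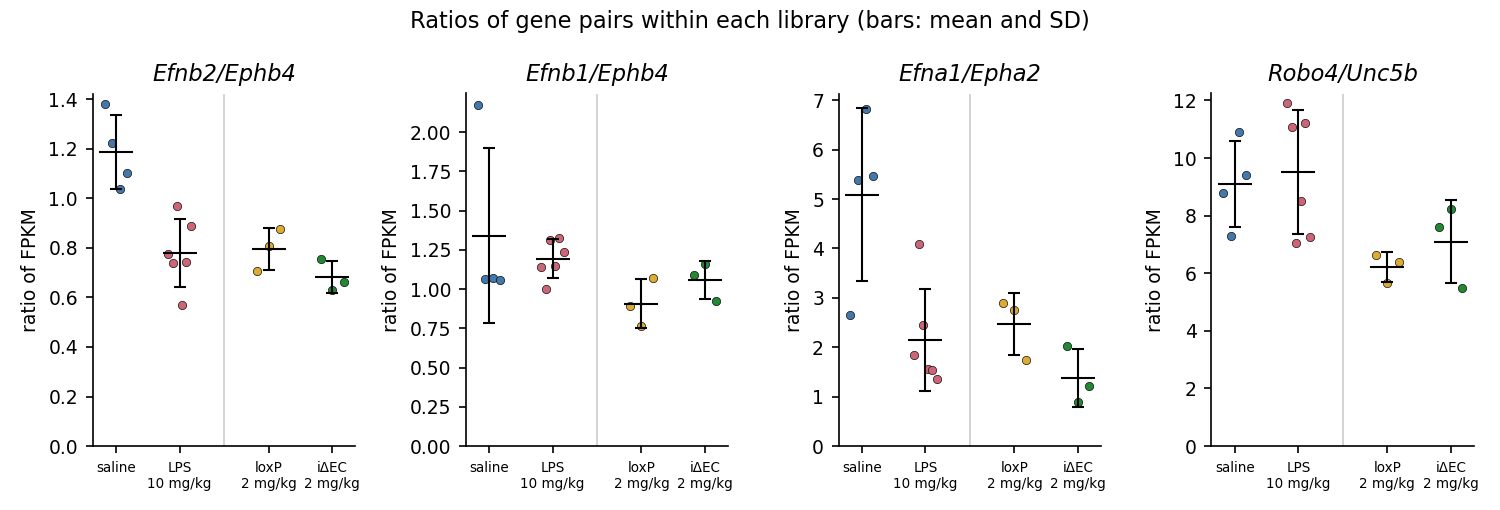
Ratio of the FPKM of paired guidance genes within each library (points), with the mean and SD of the group (bars). The ratio of Efnb2 to Ephb4 is 1.04 or more in the 4 saline libraries and at most 0.969 in the 6 LPS libraries, and the ratio of Efna1 to Epha2 overlaps in that LPS 2 (4.09) lies above saline 1 (2.65).

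Arterial and venous markers were set beside Efnb2 and Ephb4, since these genes mark the 2 kinds of vessel. Of 6 arterial markers, 5 were lower in LPS (limma), among them Gja4, a connexin of arterial ECs, with 132 ± 36.6 FPKM (SD, n = 4) in saline and 43.6 ± 16.6 (SD, n = 6) in LPS. Of 6 venous markers, 2 were higher and 2 lower, and Aplnr, the apelin receptor, changed from 115 ± 24.1 FPKM (SD, n = 4) to 7.32 ± 2.65 (SD, n = 6). The arterial list summed to 366 to 461 FPKM in saline and 95.4 to 225 in LPS, and the venous list, mostly Aplnr in saline, to 152 to 155 and 28.3 to 71.0. On the mean log2(FPKM + 1) of their genes the arterial list differed by -1.25 with no overlap and the venous list by -0.23 with overlap. The 2 venous markers called higher in LPS were Selp and Ackr1. The part of these lists in the change of Efnb2 and Ephb4 was not tested.

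The wider guidance families were counted in the same fit. Of 63 tested genes of 99 listed, 12 were higher and 35 lower in LPS, with a median log2 fold change of -0.54, beside 29.5% higher and 23.7% lower of all genes. On the endothelial scaling 18 of 62 were higher and 10 lower, with a median of 0.05, beside 49.8% higher and 4.81% lower of all genes, and on Cdh5 alone 19 of 61 and 7, beside 56.3% and 4.03%. The counts for each family below are to be read against these shares. The ephrin ligands had 3 of 4 tested genes lower, which are Efna1, Efnb1 and Efnb2, and Efna4 was the fourth. The Eph receptors had 3 of 5 lower, and beside Ephb4 these were Epha1, with 2.17 ± 0.860 FPKM (SD, n = 4) in saline and 0.524 ± 0.150 (SD, n = 6) in LPS, and Ephb3, with 1.28 ± 0.782 and 0.435 ± 0.0900, which is under 0.5 FPKM in LPS and passed the filter only through saline. Both Slit or Robo genes tested were lower, Robo4 and the ligand Slit3, which fell from 6.49 ± 1.21 FPKM (SD, n = 4) to 2.23 ± 0.835 (SD, n = 6). On the endothelial scaling 1 of 3 ephrins, 1 of 5 Eph receptors and 1 of 2 Slit or Robo genes were lower, and on Cdh5 alone these counts were 0, 1 and 1.

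Netrins, Unc5 receptors and their partners (Neo1, Rgmb and Flrt3 among those tested) had 6 of 7 tested genes lower, and 2 of 7 on the endothelial scaling or on Cdh5 alone. Ntn4, a netrin of basement membranes, fell from 35.7 ± 3.30 FPKM (SD, n = 4) to 7.78 ± 2.94 (SD, n = 6), with a log2 fold change of -2.14 (SE 0.27, limma adjusted p = 8.41e-05) that was -1.44 on the endothelial scaling. Unc5a (2.70 ± 0.289 to 0.860 ± 0.261 FPKM) and Ntn1 (44.6 ± 9.85 to 23.3 ± 6.93 FPKM), a ligand of Unc5 receptors, also fell, and Ntn1 was not called on the endothelial scaling (log2 fold change -0.19).

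Plexins and neuropilins had 5 of 10 tested genes lower and 2 higher, and 1 lower and 3 higher on the endothelial scaling. Nrp1, which binds class 3 semaphorins and VEGF, fell from 66.6 ± 9.68 FPKM (SD, n = 4) to 25.0 ± 6.84 (SD, n = 6), a log2 fold change of -1.42 (SE 0.21, limma adjusted p = 0.000255) that was -0.67 on the endothelial scaling. Plxna1 (log2 fold change -1.23) and Plxnd1 were the next lower, and neither was called on the endothelial scaling (-0.49 for Plxna1) or on Cdh5 alone (-0.39). Plxnb2, a receptor of class 4 semaphorins, rose from 11.5 ± 0.494 FPKM (SD, n = 4) to 38.1 ± 5.96 (SD, n = 6), a log2 fold change of 1.64 (SE 0.12, limma adjusted p = 3.14e-06). Plxnb3 (0.190 ± 0.0653 and 0.965 ± 0.291 FPKM) was the other one called higher, and it passed the filter only through LPS, where it was higher.

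Semaphorins had 6 of 15 tested genes lower and 3 higher, and 2 lower and 4 higher on the endothelial scaling. The lower ones included Sema6a (28.3 ± 5.23 to 7.35 ± 1.61 FPKM), Sema6d (22.6 ± 9.37 to 6.41 ± 2.75 FPKM) and Sema3c (179 ± 36.1 to 99.9 ± 34.3 FPKM), a secreted class 3 semaphorin whose change was -0.12 and not called on the endothelial scaling. The higher ones were Sema4d (2.88 ± 1.31 to 42.8 ± 17.4 FPKM), Sema4a (2.42 ± 1.30 to 26.9 ± 8.48 FPKM) and Sema7a (125 ± 83.2 to 409 ± 92.6 FPKM). Sema4d and Sema4a are known to be abundant in leukocytes, whose markers were higher in the same libraries, and the part of these cells was not tested.

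Of 20 tested intracellular partners, 10 were lower and 7 higher, and on the endothelial scaling 2 were lower and 10 higher. Sdcbp, which encodes the ephrin-B adaptor syntenin, rose by 1.15 and Rras by 0.74 on the log2 scale, and Rras was at 0.10 and not called after quantile normalization. Arhgef12, whose product binds PlexinB receptors, had a log2 fold change of -1.53, Dpysl2 of -1.26 and Dpysl3 of -1.18, and Dpysl2 (-0.53) was not called on the endothelial scaling, nor either Dpysl gene on Cdh5 alone (-0.42 for both).

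**Figure D4:**
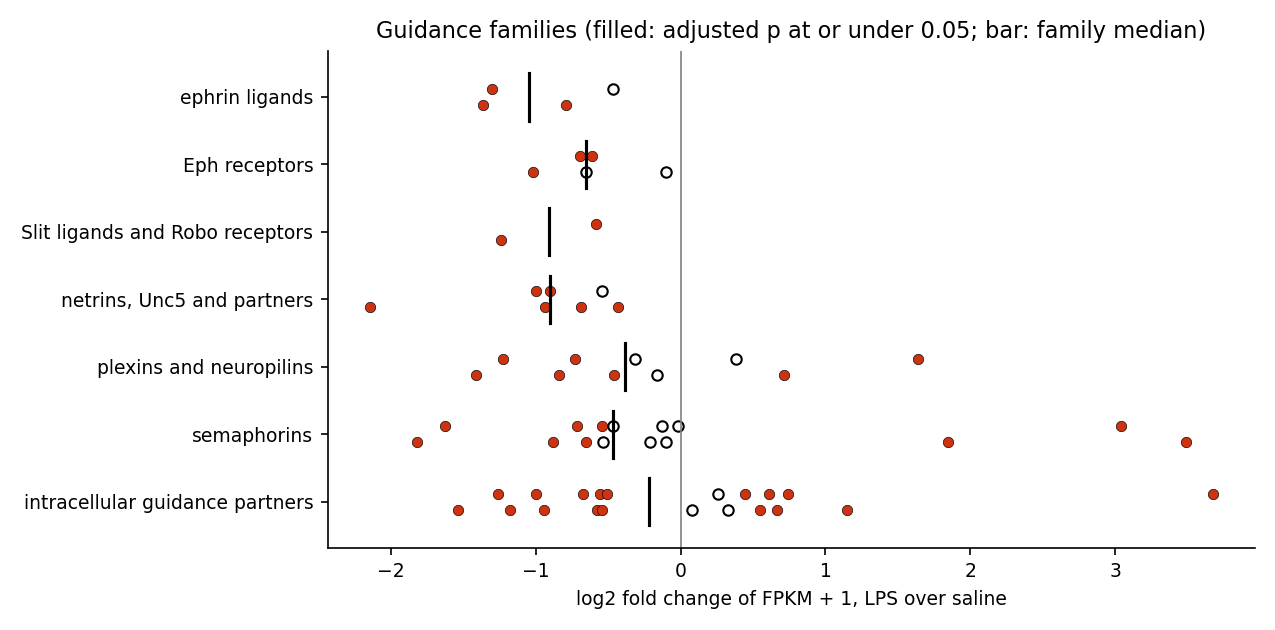
Log2 fold change of FPKM + 1, LPS over saline, for each tested gene of 7 guidance families (points, filled where the limma adjusted p is at or under 0.05), with the family median (bar). The medians run from -1.05 in ephrin ligands to -0.21 in intracellular partners, beside 0.01 over all genes. On the endothelial scaling those of plexins, semaphorins and intracellular partners lie above 0, as do these 3 and, at 0.004, the Eph receptors on Cdh5 alone. The median over all genes is 0.60 on the endothelial scaling and 0.69 on Cdh5 alone.

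For each called guidance gene, the gene with the most similar profile over the 10 libraries was found as the smallest root-mean-square distance between centred log2(FPKM + 1) values. It was Hist3h2ba for Efna1 (distance 0.0715), Spry2 for Efnb1 (0.167), Acer2 for Efnb2 (0.112), Fkbp9 for Ephb4 (0.0668), Hspa12b for Robo4 (0.0709) and Cdk14 for Plxnd1 (0.0794). Spry2 encodes an inhibitor of receptor tyrosine kinase signalling. The groups take part in this distance, so it is a description only.

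The second comparison asked what loss of endothelial Fgfr1 changes in ECs of LPS-treated mice. Fgfr1 itself was 2.80 ± 0.181 FPKM (SD, n = 3) in Fgfr1 loxP/loxP and 1.08 ± 0.368 (SD, n = 3) in Fgfr1 iΔEC/iΔEC libraries, with no overlap, in the direction of the labels. Its log2 fold change was -0.88 (limma adjusted p = 0.960; p = 0.1 by a two-sided exact permutation test, which cannot go lower with 3 libraries a group). None of the 8 tested guidance genes was called, and 0% of all 14944 genes tested were, where limma gave 663 genes (4.44%) at an unadjusted p under 0.05 and voom on the recovered reads gave 0 calls and 614 such genes. Blocking on the replicate number in limma gave 0 calls and 1150 genes at an unadjusted p under 0.05, with 3 of the 8 guidance genes among them and 2 without the block. The groups did not overlap, with Fgfr1 iΔEC/iΔEC higher, for 2 of the 8, against 6.1% of all genes, and for none with it lower, against 4.07%.

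Epha2 was the guidance gene with the smallest unadjusted p. Its level was 23.9, 21.5 and 19.9 FPKM in Fgfr1 loxP/loxP 1 to 3 and 32.3, 33.6 and 31.7 FPKM in Fgfr1 iΔEC/iΔEC 1 to 3. All 3 Fgfr1 iΔEC/iΔEC libraries were above all controls, and each group was narrow. In limma without the replicate block, the log2 fold change was 0.56 (SE 0.10, 95% confidence interval 0.32 to 0.81). The unadjusted p was 0.00115 and the adjusted p 0.960 in this fit, which also gave the values of the single genes below.

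Robo4 was at 60.0, 45.0 and 38.6 FPKM in Fgfr1 loxP/loxP and at 68.8, 63.1 and 62.7 FPKM in Fgfr1 iΔEC/iΔEC libraries. The groups did not overlap, but the lowest Fgfr1 iΔEC/iΔEC library was close to the highest control. The log2 fold change was 0.45 (SE 0.17, 95% confidence interval 0.04 to 0.87, limma adjusted p = 0.960), and it turned to -0.043 on Cdh5 alone.

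The ephrin ligands and Ephb4 overlapped between the genotypes. Efnb2 was at 55.3, 44.4 and 61.7 FPKM in controls and at 74.3, 36.0 and 67.8 FPKM in Fgfr1 iΔEC/iΔEC libraries. Efna1 was at 69.4, 59.4 and 34.9 FPKM in controls and at 65.5, 30.0 and 38.3 FPKM in Fgfr1 iΔEC/iΔEC libraries. For both genes, Fgfr1 iΔEC/iΔEC 2 held the lowest value of all 6 libraries. Efnb1 was at 69.7, 42.0 and 75.6 FPKM in controls and at 108, 66.4 and 94.5 FPKM in Fgfr1 iΔEC/iΔEC libraries. Ephb4 was at 78.2, 55.1 and 70.6 FPKM in controls and at 98.7, 57.2 and 102 FPKM in Fgfr1 iΔEC/iΔEC libraries. In Efnb1 and Ephb4, libraries 1 and 3 of Fgfr1 iΔEC/iΔEC lay above all controls and library 2 did not. Against the control of the same number, Fgfr1 iΔEC/iΔEC was higher in 3 of 3 pairs for both genes. The labels do not give this pairing, and it is uncertain. The log2 fold changes were 0.53 for Efnb1, 0.30 for Ephb4, 0.09 for Efnb2 and -0.30 for Efna1 (limma adjusted p of 0.960 to 0.985), and on Cdh5 alone those of Ephb4 and Efnb2 turned to -0.19 and -0.41. Leaving out 1 library at a time moved them widely, from 0.27 to 0.73 for Efnb1, 0.16 to 0.57 for Ephb4, -0.11 to 0.41 for Efnb2 and -0.61 to -0.06 for Efna1.

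Unc5b was at 9.03, 7.96 and 6.04 FPKM in controls and at 9.06, 7.68 and 11.4 FPKM in Fgfr1 iΔEC/iΔEC libraries. Plxnd1 was at 40.8, 41.4 and 28.2 FPKM in controls and at 42.5, 33.9 and 39.0 FPKM in Fgfr1 iΔEC/iΔEC libraries. Slit2 was at 0.0862 to 0.158 FPKM (36 to 73 reads) in controls and at 0.0765 to 0.145 FPKM (33 to 60 reads) in Fgfr1 iΔEC/iΔEC libraries. These 3 genes overlapped between the genotypes, and Slit2 was lower in Fgfr1 iΔEC/iΔEC in 3 of 3 pairs. In the fit without the replicate block, the 95% confidence intervals of the log2 fold changes were -0.18 to 0.70 for Unc5b and -0.35 to 0.50 for Plxnd1. In that fit, changes within these intervals could not be told from none. Over the 8 genes the median was 0.28 on the log2 scale, beside 0.01 over all genes, and 7 of the 8 were above 0, against 53.4% of all genes. This median was 0.05 on the endothelial scaling, 0.03 on Pecam1 alone and -0.20 on Cdh5 alone, beside -0.18, -0.20 and -0.39 over all genes, and leaving out 1 library moved it from 0.14 (without Fgfr1 iΔEC/iΔEC 3) to 0.44 (without Fgfr1 iΔEC/iΔEC 2). Fgfr1 iΔEC/iΔEC 2 was the lowest of its group in 7 of the 9 genes.

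**Figure D5:**
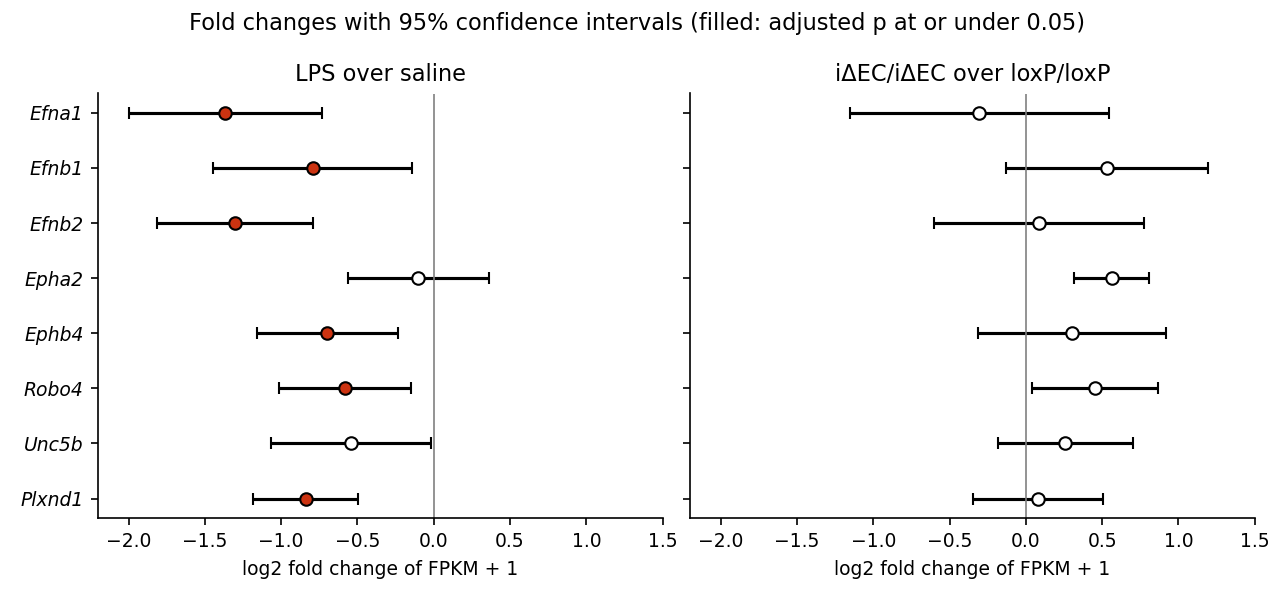
Log2 fold change of FPKM + 1 (points) with 95% confidence intervals (bars) for the 8 tested guidance genes, LPS over saline on the left and Fgfr1 iΔEC/iΔEC over Fgfr1 loxP/loxP on the right. Neither fit used a replicate block. On the left 6 genes are filled as called lower (1 on the endothelial scaling, none on Cdh5 alone), and on the right none is filled and the intervals of Epha2 and Robo4 lie above 0, which neither does on the endothelial scaling or on Pecam1 alone.

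The ratio of Efnb2 to Ephb4 was 0.707 to 0.874 in Fgfr1 loxP/loxP and 0.629 to 0.753 in Fgfr1 iΔEC/iΔEC libraries, with overlap (0.946 to 1.17 and 0.842 to 1.007 on the transcript lengths). The ratio of Efna1 to Epha2 was 1.75 to 2.90 and 0.892 to 2.03, also with overlap, and lower in 3 of 3 pairs. Both experiments differ in dose, genotype and tamoxifen, so these values are set beside those of the first experiment without a test.

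Marker lists in the second experiment overlapped between the genotypes, except the mesothelial one, which was under 1 FPKM in sum in all libraries. The mean log2 difference was 0.24 for the endothelial list, -0.73 for the epithelial list and -0.47 for the neutrophil list, and against the control of the same number the first was higher and the others lower in 3 of 3 pairs, as was the mural list (-0.13). The lymphocyte list differed by -0.39, the leukocyte list by -0.27, the erythroid list by 0.33 and the lymphatic endothelial list by 0.30. On the endothelial scaling, the log2 fold change was 0.33 for Epha2 and 0.21 for Robo4, and Efnb2 and Plxnd1 turned to -0.16 each. The part of cell composition in these differences was not tested.

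Of 59 tested genes of the wider guidance families, none was called and 10 had groups that did not overlap, 9 higher in Fgfr1 iΔEC/iΔEC and 1 lower, beside 6.1% and 4.07% of all genes. The median log2 fold change of the 59 was 0.09, beside 0.01 over all genes. It was -0.13 on the endothelial scaling, -0.15 on Pecam1 alone and -0.34 on Cdh5 alone, beside -0.18, -0.20 and -0.39 over all genes. At an unadjusted limma p under 0.05 were 8 of the guidance genes, 1 on the endothelial scaling, 1 on Pecam1 alone and 10 on Cdh5 alone. Of all genes, these counts were 663, 559, 696 and 2265. Beside Epha2 and Robo4, the genes higher in Fgfr1 iΔEC/iΔEC with no overlap were Unc5a, Plxna2, Plxna4, Sema7a, Sema4c, Srgap1 and Srgap2. Plxna2, a receptor that pairs with neuropilins, was at 9.08 ± 0.993 FPKM (SD, n = 3) in controls and 14.5 ± 3.24 (SD, n = 3) in Fgfr1 iΔEC/iΔEC, and Sema7a, a membrane-bound semaphorin, at 471 ± 132 and 706 ± 65.2. The lower gene was Dpysl2, a cytoplasmic partner of semaphorin signalling, at 16.7 ± 0.998 FPKM (SD, n = 3) and 12.8 ± 0.853 (SD, n = 3). All 10 had a limma adjusted p of 0.960.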

How the data were processed

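Per the labels and the study's methods, the authors sequenced the libraries on a NovaSeq, aligned reads to GRCm38/mm10 with HISAT2 2.0.5, counted them with featureCounts 1.5.0-p3 and deposited FPKM for each gene, in 1 table per experiment. Annotation release, strand and the treatment of reads with several alignments are not given in the sources used here. FPKM times gene length gave whole reads for 100.0% of values above 0 (within 0.01 read for small counts), so depth was known, at 13478726 to 19043015 reads on genes per library. Library sizes within the FPKM of the first experiment were already those of median-of-ratios scaling, and those of the second were close to them. In the table of the second experiment, 11 symbols were replaced through the gene identifier, and no column of values lacked a sample.

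Groups were compared within each table with limma 3.58.1 in R 4.3.3 (trend) on log2(FPKM + 1) over genes whose mean reached 0.5 FPKM, with Benjamini-Hochberg adjustment over all genes tested, and calls at 0.05. Single values were tested with two-sided exact permutation tests (scipy 1.17.1). Figures were drawn with matplotlib 3.10.9. The fit was tested on simulated data. Recovered reads were tested with voom as an alternative. In the second experiment, deviations of same-numbered libraries from their group means correlated at 0.248, 0.177 and 0.187, and those of other pairs at -0.14 to -0.041. Deviations within a group cancel out, so the negative values follow from the positive ones and add no separate support. With so few libraries, the numbered matching may also be the best by chance. The numbers were therefore taken only as a possible pairing, which comes from the data and not from the labels. It was used in the replicate block and in the counts of pairs, and not in the main fit.

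The guidance genes, families and marker lists were chosen with earlier results of these data known. Beside the 9 genes, the text names the 3 called genes of each family with the largest change in each direction (in the second experiment, those whose groups do not overlap), the most abundant gene of a marker list, genes of the sort, Fgfr1, and the nearest profile of each called gene. A gene that this rule names is not reported here. Emcn, Kdr, Cdh5, Efna4, Neo1, Rgmb, Flrt3, Ly6g, Marco, Selp and Ackr1 fall outside this rule and were named after their values were seen. Promoters came from RefSeq (GRCm38.p6), with a window for all 9 genes, and gene positions from GENCODE M21. Depth limits Slit2 most.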

Additional observations from a re-analysis of the deposited data

Results flagged for a closer look

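Efnb1 in saline 1, at 240 FPKM, lay far above the other 3 saline libraries (102 to 110 FPKM). On log2(FPKM + 1), the gap to the nearest of them was 0.908 of the whole range of the group. Of 18 groups of values examined (9 genes in saline and in LPS), this was the only such sample, and chance would give about 0.9. Saline 1 also had the highest sums of the saline group for the endothelial (5236 FPKM), leukocyte (227), neutrophil (1380), macrophage (1197), epithelial (2845), lymphatic endothelial (1271), mural (115) and erythroid (25.3) markers. Its arterial sum (366 FPKM) was the lowest of that group. The venous sums of the saline libraries were nearly equal (152 to 155 FPKM). On the mean log2(FPKM + 1) of the venous markers, saline 1 was the highest of its group (3.86, against 2.59 to 3.19). Without saline 1, Efnb1 was not called lower in LPS (log2 fold change -0.50, limma adjusted p = 0.112).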

How the results depend on the processing

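Median-of-ratios scaling was already in the FPKM of the first experiment and so tested nothing there. Pseudocount, filters and voom left 6 guidance genes lower in LPS, except that no filter left 5 of 9, where Efnb1 (limma adjusted p = 0.0982) and Robo4 (0.0602) lost their calls and Slit2 gained one. Over all genes, 4399 were higher and 3529 lower; scaling on total reads gave 3463 and 4669, quantile normalization 3570 and 4295, and both gave 7 guidance genes lower. The fold limit gave 1768 higher and 1011 lower, 2 guidance genes lower, and 6 higher and 14 lower in the wider families. Scaling on the endothelial list gave 7474 and 722, 1 and 1, and 18 and 10, with values of 0.63 for Epha2, 0.064 for Ephb4, 0.17 for Robo4 and 0.11 for Unc5b, and in the second experiment -0.16 for Efnb2 and -0.16 for Plxnd1. Alternatives chosen after seeing the data were scaling on a single gene and leaving out libraries together. Pecam1 alone gave 1962 genes lower, 0.061 for Epha2, and -0.18 for Efnb2 and Plxnd1 in the second experiment. Cdh5 alone gave 8442 and 604, 1 and 0, and 19 and 7, with 0.082 for Efnb1, 0.74 for Epha2, 0.18 for Ephb4, 0.29 for Robo4, 0.21 for Unc5b and 0.021 for Plxnd1, and in the second experiment -0.41 for Efnb2, -0.19 for Ephb4, -0.043 for Robo4, -0.20 for Unc5b and -0.42 for Plxnd1. Without both saline 1 and saline 3, 3 guidance genes and 21.3% of all genes were lower. Leaving out each library in turn gave 4 to 7 guidance genes lower, 3815 to 4606 genes higher and 2890 to 3766 lower, -0.22 to 0.0046 for Epha2 (without LPS 1), and in the second experiment -0.11 to 0.41 for Efnb2 and -0.10 to 0.17 for Plxnd1. The causes were not tested. In the second experiment no gene was called in any fit, and the replicate block changed no call (smallest adjusted p = 0.301 over all genes and 0.527 over the guidance genes). In the first, same-numbered libraries correlated at -0.209 to 0.097 and share only a number. With the replicate block over replicates 1 to 4, 4 guidance genes were lower, against 6 without it. Of all genes, 17.2% were lower with the block and 20.5% without it.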
